A study of Mus musculus with 8 samples.

Results

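Interferon-stimulated genes were followed in whole mouse liver as 39 named genes, taken by name from a table of 24545 rows with 1 column per library. All 39 names were in the table, where they occupied 38 rows because Gbp3 and Gbp7 had identical values in every library and share 1 row. They were grouped by known role into 24 type I-linked genes (18 effectors, 3 cytosolic sensors and 3 transcription factors), 5 immunity-related GTPases (IRG), 4 guanylate-binding proteins (GBP), 4 genes of the immunoproteasome and the peptide transporter TAP, and Irf1 with Irf8. The libraries came from male C57Bl/6J mice in 4 groups of 2, described by the submitters as biological replicates. ApoE-Cyp7a1 transgenic mice with daily lipopolysaccharide (LPS) injections at 1.5 mg/kg for 7 days were set against untreated ApoE-Cyp7a1 transgenic mice, and wild-type mice with the same injections were set against untreated wild-type mice. The transgene is liver-specific per the design text, and its name joins ApoE to Cyp7a1, whose enzyme limits the rate at which bile acids are made. The age of the mice, the number of founder lines, whether untreated mice received a vehicle and the time between the last injection and tissue collection were not stated in the labels.

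Interferons are secreted signals that switch on a common antiviral and antimicrobial program. Type I interferons act through the receptor pair Ifnar1 and Ifnar2 and a complex with Stat2 and Irf9 that binds the interferon-stimulated response element (ISRE), whereas interferon gamma acts through Ifngr1 and Ifngr2 and the gamma-activated site (GAS). LPS is sensed by Tlr4 with Cd14, and in macrophages this can induce interferon beta; IRG and GBP genes, the immunoproteasome subunits and Irf1 are classical interferon gamma targets, and hepatocytes as well as Kupffer cells carry both receptors.

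Promoter sequence is shown for 8 members whose LPS change passed the test and whose promoter holds an ISRE core or a GAS, because it lets genes that rose and genes that fell be compared at the letters read by interferon-activated factors. The windows are from RefSeq on build GRCm38.p6 and cover 250 bases before to 50 bases after an annotated start site. Capitals mark matches to the ISRE core, which is GAAA, any 2 bases, then GAAA again, or to the GAS, TTCNNNGAA. Both were searched on both strands, and 25 bases are shown beyond the outermost matches. On the opposite strand the ISRE core reads TTTC, any 2 bases, TTTC, and the GAS reads the same on both strands; ISRE core matches may overlap each other.
Irf8: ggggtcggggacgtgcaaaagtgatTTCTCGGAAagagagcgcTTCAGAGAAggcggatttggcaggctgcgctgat
Gbp2: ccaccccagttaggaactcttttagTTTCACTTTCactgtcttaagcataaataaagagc
Gbp7: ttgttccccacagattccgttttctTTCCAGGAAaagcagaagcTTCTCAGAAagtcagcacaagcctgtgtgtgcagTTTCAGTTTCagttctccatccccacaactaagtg
Psmb8: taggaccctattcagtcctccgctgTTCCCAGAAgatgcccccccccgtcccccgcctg
Oas1a: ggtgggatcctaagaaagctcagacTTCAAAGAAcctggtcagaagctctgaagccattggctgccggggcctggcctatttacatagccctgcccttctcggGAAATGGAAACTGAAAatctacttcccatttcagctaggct
Igtp: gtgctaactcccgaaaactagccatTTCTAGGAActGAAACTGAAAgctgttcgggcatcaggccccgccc
Irgm2: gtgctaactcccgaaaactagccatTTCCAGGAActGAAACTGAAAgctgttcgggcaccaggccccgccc
Ifit1: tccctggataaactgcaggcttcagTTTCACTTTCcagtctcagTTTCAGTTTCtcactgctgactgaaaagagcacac
The stretches lie at chr8:120736162-120736238 (+ strand) for Irf8, chr3:142620579-142620638 (+ strand) for Gbp2, chr3:142530205-142530317 (+ strand) for Gbp7 and chr17:34198073-34198131 (+ strand) for Psmb8. Those of the other genes lie at chr5:120907505-120907648 (- strand) for Oas1a, chr11:58199486-58199556 (+ strand) for Igtp, chr11:58214877-58214947 (+ strand) for Irgm2 and chr19:34640760-34640838 (+ strand) for Ifit1. Of the printed genes, Irf8, Gbp2, Gbp7, Psmb8 and Oas1a were higher after LPS, while Igtp, Irgm2 and Ifit1 were lower. By genotype, Psmb8 passed only in wild-type liver, and Oas1a, Igtp, Irgm2 and Ifit1 passed only in transgenic liver. The values for Gbp2, Gbp7 and Oas1a are those of rows shared with other genes. The printed stretches of Igtp and Irgm2 have 69 of 71 bases in common, each with a GAS beside an ISRE core.

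RefSeq windows were found for 29 of the 39 members, 34 windows in all since 5 genes have 2. An ISRE core was present in 14 of the 29 members and in 14 of their 34 windows, against 3.44% of all 32851 windows. A GAS was present in 9 of the 29 members and in 9 of the 34 windows, against 8.3% of all windows. All 3 GBP genes with a window and 3 of 4 IRG genes with a window held an ISRE core. In the LPS change averaged over the genotypes, all 3 GBP rows rose and all 5 IRG rows fell. These counts do not cover the same members: Gbp3 and Gbp7 share a row, and Gbp6 and Iigp1 had no window. No ISRE core was found in the 4 immunoproteasome and TAP windows or in those of Irf1 and Irf8, and a GAS was found for Irf1, Irf8 and Psmb8. These are matches of letters in short windows and say nothing of binding.

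**Figure D1:**
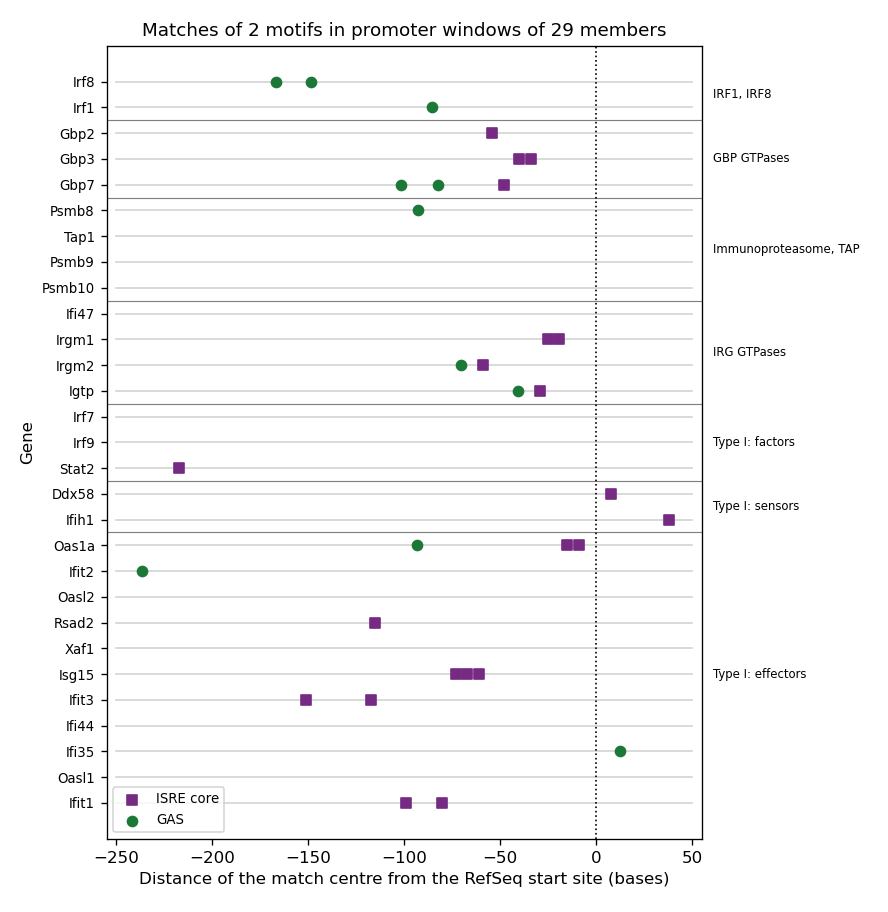
Position of each ISRE core match (squares) and GAS match (circles) in bases from the RefSeq start site, 1 line per member with a promoter window; of the 5 genes with 2 windows, the one with more matches is drawn. Matches of the ISRE core in GBP and IRG genes lie within 100 bases before the start site.

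Values are FPKM, fragment densities corrected for transcript length and library size, so levels can be compared between genes. Tests were made in limma on log2(FPKM + 1) over all 11463 rows with at least 1 FPKM in at least 2 libraries, and a row was called where p, adjusted after Benjamini and Hochberg, was under 0.05. Changes are log2 differences on that scale with their SE, from 2 libraries a group, and understate the change of low genes. Of the 38 member rows, 37 were tested; Ifi44 stayed at 0.615 to 0.866 FPKM and was not. Another 7 rows carry, with identical values, names outside the set: Ifit3 with I830012O16Rik, Oas1a with Oas1g, Irf9 with Rnf31, Stat2 with Apof, Ifi47 with Olfr56, Gbp2 with Gbp2b, and Gbp6 with Gbp4, Gbp9, Gbp10 and Gbp11. The Stat2 row ranged from 140.0 to 386.0 FPKM, and since Apof is a liver apolipoprotein gene this row cannot be read as Stat2. On chromosome 11, Igtp (58199556 to 58207591) and Irgm2 (58199618 to 58222782) overlap on the same strand, and on chromosome 17, Tap1 (34187553 to 34197225) and Psmb9 (34181987 to 34187764) overlap on opposite strands (GENCODE vM21, GRCm38), so their values may share fragments.

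Cyp7a1 had 70.2 to 73.5 FPKM in transgenic mice given LPS, 64.7 to 78.5 FPKM in untreated transgenic mice, 19.9 to 27.9 FPKM in wild-type mice given LPS and 24.9 to 49.1 FPKM in untreated wild-type mice. The summed FPKM of 4 pancreas genes was 2305 and 505 in the untreated transgenic libraries and 603 in untreated wild-type library 1, against 1.29 to 75.5 in the other 5, so 3 libraries stand apart. Results are also given without both untreated libraries numbered 1, the highest of each genotype. Leaving out all 3 would leave no untreated transgenic library, so in transgenic liver the pancreas RNA and the untreated state cannot be told apart; all 4 pancreas genes were lower with LPS there, and 0 of 4 passed in wild-type liver. Macrophage markers were higher after LPS, with 11 of 12 passing in each genotype: their summed FPKM was 1603 to 1614 in LPS-treated and 187 to 281 in untreated transgenic livers, and 1776 to 1801 in LPS-treated and 156 to 292 in untreated wild-type livers. Markers of other cell types moved with LPS too: all 6 neutrophil and all 6 B and plasma cell markers in the table, 5 of 6 endothelial, 4 of 6 stellate, 2 of 3 tested T and NK cell, 1 of 2 tested dendritic and 1 of 3 tested plasmacytoid dendritic cell markers rose in each genotype, and 0 of 4 cholangiocyte markers did. B and plasma cell markers summed to 43.6 to 68.9 FPKM in LPS-treated and 2.85 to 9.82 FPKM in untreated transgenic livers, and to 50.6 to 62.9 FPKM in LPS-treated and 1.94 to 2.4 FPKM in untreated wild-type livers. Endothelial markers summed to 235 to 236 FPKM in LPS-treated and 88.5 to 91.3 FPKM in untreated transgenic livers, and to 218 to 240.0 FPKM in LPS-treated and 91.8 to 108 FPKM in untreated wild-type livers. T and NK cell markers summed to 7.15 to 11.1 FPKM with LPS and 2.02 to 3.17 FPKM without. The 8 hepatocyte markers summed to 12094 to 16153 FPKM in LPS-treated and 15011 to 18717 FPKM in untreated transgenic livers, and to 14267 to 14384 FPKM in LPS-treated and 18641 to 24601 FPKM in untreated wild-type livers, with none at 0. Apoa1 alone, at 5071 to 14330 FPKM, weighs heavily in these sums. The hepatocyte markers did not move as one: 1 of 8 rose and 1 fell in transgenic liver (median -0.19). In wild-type liver 0 rose and 2 fell (median -0.86). Over all rows 16.0% rose and 10.5% fell in transgenic liver, and 16.2% rose and 5.41% fell in wild-type liver. In whole tissue, fewer cells of a type and less RNA per cell cannot be told apart, and the part of these shifts in the results that follow was not tested.

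After LPS the set did not move as one. In transgenic liver 5 of 37 member rows rose (13.5%, against 16.0% of all rows) and 12 fell (32.4%, against 10.5% of all rows), and in wild-type liver 7 rose (18.9%, against 16.2%) and 2 fell (5.41%, against 5.41%). The median change of the members was -0.20 in transgenic and 0.23 in wild-type liver, beside -0.04 and -0.05 over all rows. LPS and untreated libraries did not overlap in 10 member rows with LPS higher (31.8% of all rows) and 19 with LPS lower (36.2% of all rows) in transgenic liver, and in 16 (30.5%) and 14 (34.0%) in wild-type liver. Single libraries moved these counts: in transgenic liver 3 rows rose and 3 fell without untreated transgenic library 1, 2 and 7 without untreated transgenic library 2, and 2 and 6 without transgenic LPS library 1. In wild-type liver 4 rose and 4 fell without untreated wild-type library 2, 4 and 1 without wild-type LPS library 1, and 2 and 1 without wild-type LPS library 2; the 2 rows that fell there became 1 without untreated wild-type library 1 or either untreated transgenic library and 4 without either transgenic LPS library. Averaged over the genotypes, 10 member rows rose (20.6% of all rows did), 15 fell (15.8%) and 12 did not pass. Deposited FPKM summed to 406668 to 469644 in the LPS libraries, below the 500765 to 580051 of the untreated ones. With equal FPKM sums, which shift the LPS changes upward and bring 12701 rows past the filter, 13 rose and 10 fell in the averaged change. Which direction held more members therefore depends on this setting. In 8 member rows all 4 LPS libraries were above all 4 untreated ones (20.6% of all rows), and in 14 they were below (16.8%). Across the 37 rows the changes of the genotypes, which share no library, had Pearson r 0.884 and Spearman rho 0.875, with the same sign in 32 rows; over all rows Pearson r was 0.747.

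**Figure D2:**
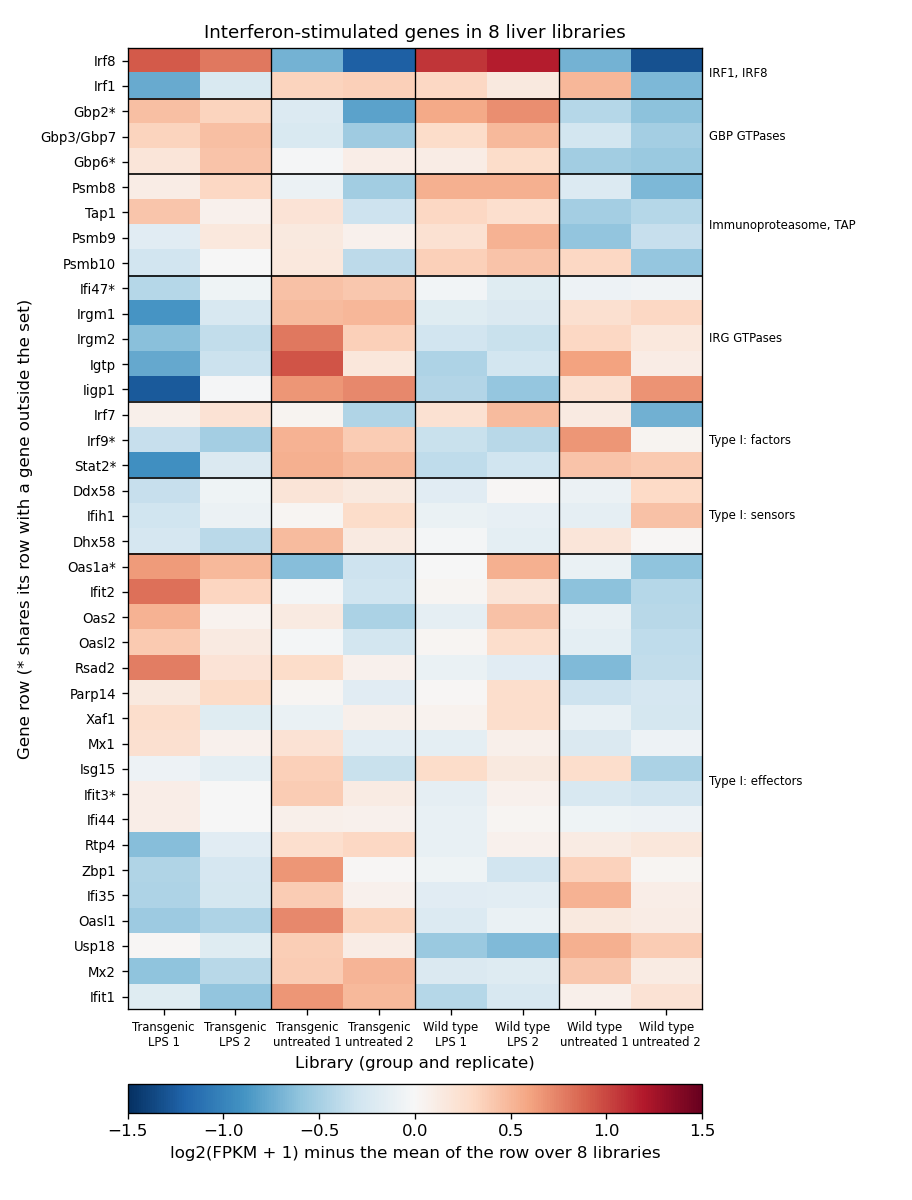
Each row is a member and each column a library; the colour gives log2(FPKM + 1) minus the mean of that row over the 8 libraries, and an asterisk marks a row shared with a gene outside the set. Irf8 and the GBP rows are high in the LPS columns of both genotypes. The IRG rows are high in the untreated columns, except that the Ifi47 row is high only in the untreated transgenic columns.

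GBP rows rose and no IRG row did, although both classes are interferon-inducible GTPases that act on pathogen-containing vacuoles. Of 3 GBP rows, 2 rose in transgenic liver and all 3 in wild-type liver, with a median change of 0.77 in each. All 5 IRG rows fell in transgenic liver, with changes from -1.34 to -0.67, and none passed in wild-type liver, where they ran from -0.97 to -0.04. Of 4 immunoproteasome and TAP rows, 0 rose in transgenic liver (median 0.13) and 3 rose in wild-type liver (median 0.80). Of 23 type I-linked rows tested, 2 rose (8.7%) and 7 fell (30.4%) in transgenic liver (median -0.32). In wild-type liver 0 of them rose and 2 fell (8.7%), with a median of -0.17. Over all rows 16.0% rose and 10.5% fell in transgenic liver, and 16.2% rose and 5.41% fell in wild-type liver. The wild-type calls of type I-linked rows depend on the setting. With equal FPKM sums, where 24 such rows were tested, 3 rose and 1 fell (median 0.12, where the median of all rows was 0.21). With quantile scaling 0 rose and 4 fell. With both untreated libraries numbered 1 left out, 1 IRG row still fell in transgenic liver (median -0.86), 2 GBP rows rose in transgenic and 3 in wild-type liver, and 1 and 2 immunoproteasome and TAP rows did. The type I-linked rows then gave 0 higher and 3 lower in transgenic liver and 2 higher and 1 lower in wild-type liver.

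**Figure D3:**
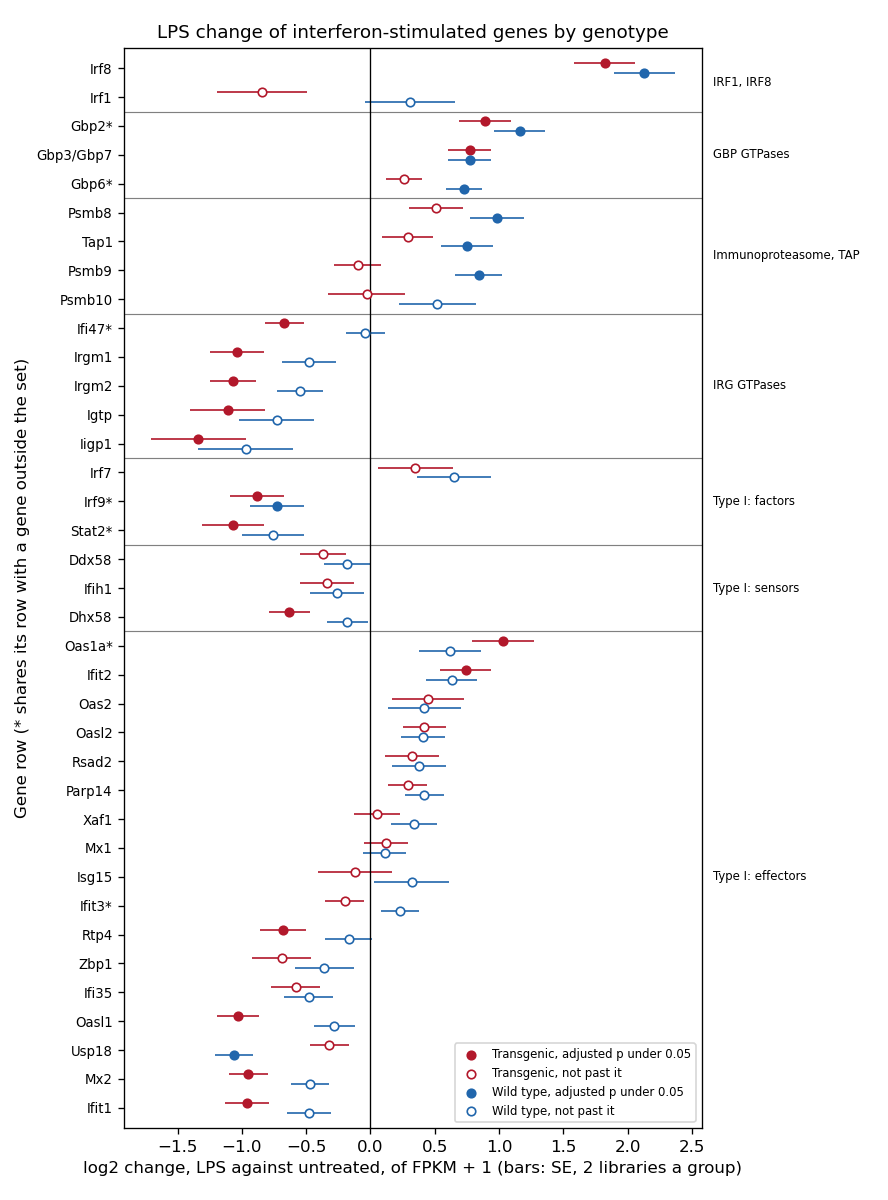
Change of each member row after LPS, as log2 difference of FPKM + 1 with SE, in transgenic (red) and wild-type (blue) liver; filled points passed an adjusted p of 0.05 and an asterisk marks a row shared with a gene outside the set. The GBP rows lie right of 0 and the IRG rows left of 0 in both genotypes, while type I-linked rows lie on both sides.

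Irf8 had the largest change of the set in both genotypes. It encodes an interferon-responsive transcription factor needed for the development of monocytes and conventional dendritic cells. In transgenic livers Irf8 had 11 and 10 FPKM with LPS, against 2.88 and 1.71 FPKM untreated, and in wild-type livers 12.3 and 13.3 FPKM with LPS, against 2.88 and 1.57 FPKM untreated. Every LPS library was above every untreated one, and the changes were 1.82 (SE 0.24, limma adjusted p = 0.00159) in transgenic and 2.13 (SE 0.24, adjusted p = 0.000657) in wild-type liver. The call held under every alternative tried in each genotype. The macrophage, neutrophil, B and plasma cell, endothelial and stellate markers given above were higher in the same libraries as Irf8 and the GBP rows, and their part in these results was not tested.

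Irf1, which drives immunoproteasome and class I genes downstream of interferon gamma, had 7.74 and 11.6 FPKM in transgenic livers with LPS, against 17.7 and 18 FPKM untreated. In wild-type livers it had 17.4 and 15.3 FPKM with LPS, against 19.9 and 8.28 FPKM untreated. The wild-type groups overlapped and the transgenic ones did not, and neither change passed (transgenic -0.84, SE 0.35, adjusted p = 0.119; wild type 0.31, SE 0.35, adjusted p = 0.56). Single libraries decided this for Irf1: the wild-type change was 0.90 (limma adjusted p = 0.029) without untreated wild-type library 1 and -0.27 (adjusted p = 0.458) without untreated wild-type library 2. The transgenic change of -0.84 passed without untreated wild-type library 1 or 2 (adjusted p = 0.0181 and 0.0183) and in a fit of the 2 transgenic groups alone (adjusted p = 0.0432).

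GBP proteins coat and disrupt vacuoles and bacteria in the cytosol. The Gbp2 row had 8.58 and 7.78 FPKM in transgenic livers with LPS, against 5.09 and 3.02 FPKM untreated, and 9.41 and 10.3 FPKM in wild-type livers with LPS, against 4.18 and 3.56 FPKM untreated. It rose in each genotype without overlap, by 0.89 (SE 0.20, limma adjusted p = 0.0177) in transgenic and by 1.16 (SE 0.20, adjusted p = 0.00575) in wild-type liver. The Gbp3 and Gbp7 row had 7.85 and 8.54 FPKM in transgenic livers with LPS, against 5.0 and 3.83 FPKM untreated, and 7.47 and 8.8 FPKM in wild-type livers with LPS, against 4.78 and 3.94 FPKM untreated. Its change was 0.77 in each genotype (SE 0.17, adjusted p = 0.0135 in transgenic and 0.0139 in wild type). The Gbp6 row behaved otherwise, with 7.02 and 8.52 FPKM in transgenic livers with LPS, against 5.98 and 6.57 FPKM untreated, and 6.64 and 7.55 FPKM in wild-type livers with LPS, against 3.92 and 3.81 FPKM untreated. The groups did not overlap in either genotype, and the change did not pass in transgenic liver (0.26, SE 0.14, adjusted p = 0.214) but did in wild-type liver (0.73, SE 0.14, adjusted p = 0.0094). Leaving out untreated transgenic library 2 ended the transgenic calls of both rows that passed there, and leaving out wild-type LPS library 2 left 1 of 3 GBP rows passing in wild type.

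Effector IRG proteins act on pathogen-containing vacuoles, while a regulatory subset (Irgm1, Irgm2 and Igtp) guards host membranes. Iigp1, an effector IRG protein, had the highest level of the class and of all members with a row of their own, at 35.6 and 85.6 FPKM in transgenic livers with LPS, against 138.0 and 144.0 FPKM untreated. In wild-type livers it had 64 and 57.7 FPKM with LPS, against 103.0 and 139.0 FPKM untreated. No LPS library reached any untreated one, but the LPS-treated transgenic pair differed more than 2-fold from each other; the change was -1.34 (SE 0.37, limma adjusted p = 0.0331) in transgenic and -0.97 (SE 0.37, adjusted p = 0.101) in wild-type liver. Without transgenic LPS library 1 the transgenic change was -0.72 and did not pass.

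The 3 regulatory IRG genes had the same order of groups. Irgm1 had 10 and 16.3 FPKM in transgenic livers with LPS, against 27.2 and 27.8 FPKM untreated, and 16.9 and 16.6 FPKM in wild-type livers with LPS, against 23.1 and 24.3 FPKM untreated. Irgm2 had 5.75 and 7.1 FPKM in transgenic livers with LPS, against 17.1 and 12.4 FPKM untreated, and 7.54 and 7.33 FPKM in wild-type livers with LPS, against 12 and 10.7 FPKM untreated. Igtp, whose promoter stretch nearly matches that of Irgm2, had 4.71 and 6.76 FPKM in transgenic livers with LPS, against 17.7 and 10 FPKM untreated, and 6.08 and 7.06 FPKM in wild-type livers with LPS, against 13.8 and 9.52 FPKM untreated. In all 3 genes every LPS library was below every untreated one. Transgenic changes were -1.04 for Irgm1 (SE 0.21, adjusted p = 0.0103), -1.07 for Irgm2 (SE 0.18, adjusted p = 0.00511) and -1.11 for Igtp (SE 0.29, adjusted p = 0.0284). Wild-type changes were -0.48, -0.55 and -0.73 and did not pass (adjusted p = 0.142, 0.0694 and 0.117), but averaged over the genotypes each gene passed, at -0.76, -0.81 and -0.92 (adjusted p = 0.00564, 0.00214 and 0.0108). The Ifi47 row had 5.09 and 6.78 FPKM in transgenic livers with LPS, against 10.1 and 9.82 FPKM untreated, and 6.91 and 6.22 FPKM in wild-type livers with LPS, against 6.71 and 6.84 FPKM untreated. It fell in transgenic liver (-0.67, SE 0.15, adjusted p = 0.0172), while the wild-type groups overlapped (-0.04, SE 0.15, adjusted p = 0.87). Of the 5 transgenic IRG calls, only that of Irgm2 held without untreated transgenic library 1, which carries the most RNA of pancreas genes; Irgm1, Iigp1 and Ifi47 were lost without untreated transgenic library 2, and Igtp, Iigp1 and Ifi47 without transgenic LPS library 1.

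**Figure D4:**
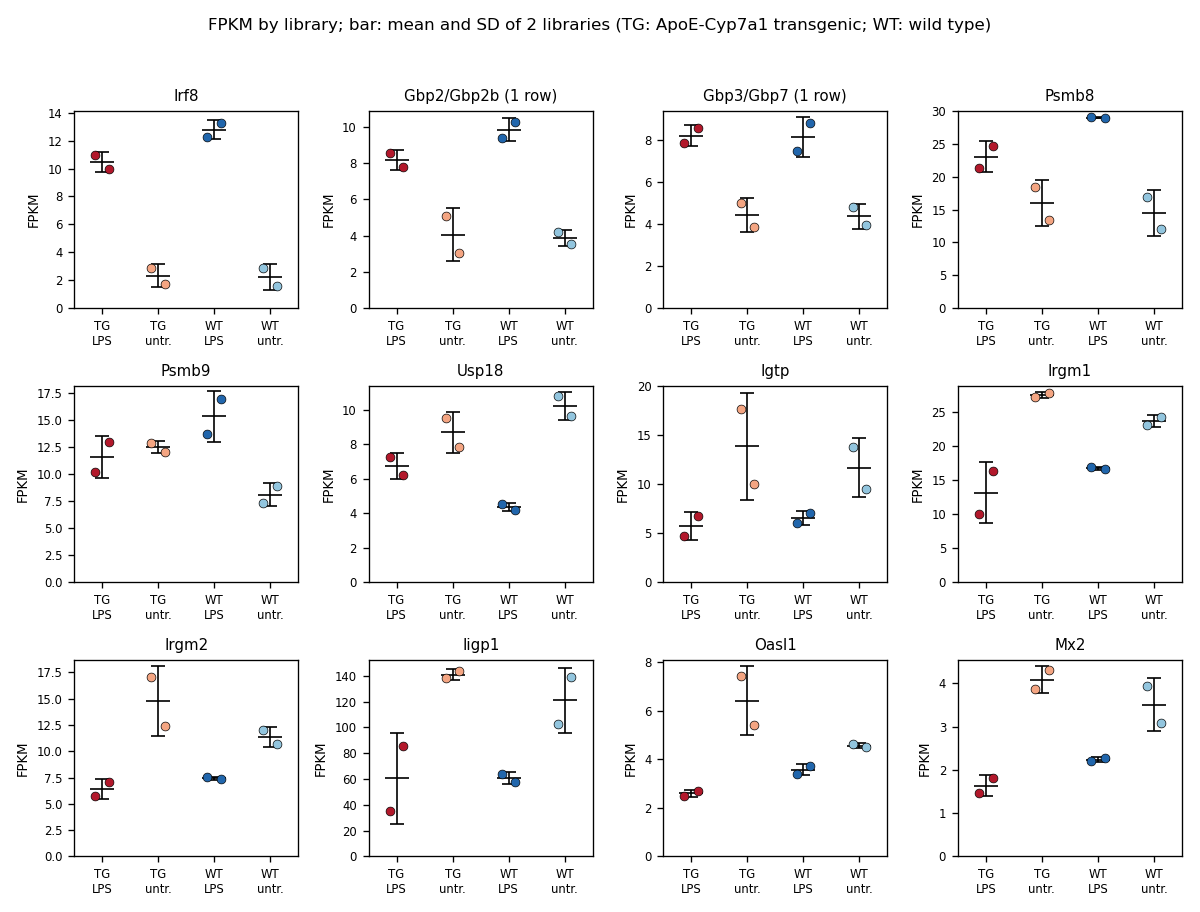
FPKM of 12 member rows in each library (points) with the mean and SD of 2 libraries (bars), in transgenic (TG) and wild-type (WT) livers with LPS or untreated. Irf8, Gbp2 and the Gbp3 and Gbp7 row are higher with LPS in both genotypes, whereas Irgm1, Irgm2, Igtp, Iigp1 and Mx2 are lower.

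The immunoproteasome replaces the catalytic subunits of the standard proteasome and favours peptides that bind class I molecules. Psmb8 had 21.4 and 24.8 FPKM in transgenic livers with LPS, against 18.5 and 13.5 FPKM untreated, and 29.1 and 29 FPKM in wild-type livers with LPS, against 17 and 12 FPKM untreated. Both LPS groups were above their untreated groups, and the change was 0.51 (SE 0.21, limma adjusted p = 0.112) in transgenic liver, where it did not pass, and 0.98 (SE 0.21, adjusted p = 0.0141) in wild-type liver. Psmb9 had 10.2 and 13.0 FPKM in transgenic livers with LPS, against 12.9 and 12.1 FPKM untreated, and 13.7 and 17 FPKM in wild-type livers with LPS, against 7.35 and 8.89 FPKM untreated. The transgenic groups overlapped (-0.10, SE 0.18, adjusted p = 0.703), whereas the wild-type change was 0.84 (SE 0.18, adjusted p = 0.0128). Tap1, a subunit of the transporter that carries peptides into the endoplasmic reticulum, had 11.5 and 8.82 FPKM in transgenic livers with LPS, against 9.82 and 6.6 FPKM untreated, and 10.7 and 10.2 FPKM in wild-type livers with LPS, against 5.6 and 5.99 FPKM untreated. Its transgenic groups overlapped (0.29, SE 0.20, adjusted p = 0.323), and in wild-type liver it rose by 0.75 (SE 0.20, adjusted p = 0.033). Psmb10 had 10.5 and 13.0 FPKM in transgenic livers with LPS, against 14.7 and 9.72 FPKM untreated, and 16.9 and 17.8 FPKM in wild-type livers with LPS, against 16.4 and 8.4 FPKM untreated, and passed in neither genotype. The wild-type calls of this class depend on single libraries: 0 of 4 passed without wild-type LPS library 2, and 1 of 4 passed without wild-type LPS library 1 or without untreated wild-type library 2.

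Set against the standard subunits they replace, Psmb9 and Psmb10 stood higher in every LPS library than in every untreated library of the same genotype. Psmb6 fell in transgenic liver (-0.79, limma adjusted p = 0.0362) and Psmb7 fell in both genotypes (transgenic -0.84, adjusted p = 0.00652; wild type -0.82, adjusted p = 0.00656). The FPKM ratio of Psmb9 to Psmb6 was 0.232 and 0.246 in transgenic livers with LPS, against 0.142 and 0.156 untreated, and 0.241 and 0.306 in wild-type livers with LPS, against 0.071 and 0.13 untreated. For Psmb10 to Psmb7 the ratio was 0.158 and 0.19 in transgenic livers with LPS, against 0.113 and 0.086 untreated, and 0.219 and 0.245 in wild-type livers with LPS, against 0.118 and 0.0661 untreated. In transgenic liver this was so although neither Psmb9 nor Psmb10 itself passed; no test was made of these ratios. The ratio of Psmb8 to Psmb5, whose row is shared with Mir686, overlapped in transgenic livers (0.226 and 0.155 with LPS, against 0.339 and 0.0768 untreated). In wild-type livers it did not overlap, at 0.27 and 0.273 with LPS, against 0.0899 and 0.0418 untreated.

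The type I-linked effectors moved in both directions. Of 17 tested, 2 rose (11.8%, against 16.0% of all rows) and 4 fell (23.5%, against 10.5%) in transgenic liver. In wild-type liver 0 rose (16.2% of all rows did) and 1 fell (5.88%, against 5.41%). Averaged over the genotypes 4 rose (23.5%, against 20.6% of all rows) and 7 fell (41.2%, against 15.8%). Of the 17 averaged changes, 10 were above 0 (median 0.10). With equal FPKM sums, where 24 type I-linked rows were tested and not 23, their averaged change gave 6 higher and 6 lower, against 4 and 10 as reported. Usp18, which removes Isg15 from proteins and restrains signalling at Ifnar2, had 7.27 and 6.2 FPKM in transgenic livers with LPS, against 9.53 and 7.82 FPKM untreated, and 4.54 and 4.18 FPKM in wild-type livers with LPS, against 10.8 and 9.62 FPKM untreated. All LPS libraries were below all untreated ones, and the change was -0.32 (SE 0.15, limma adjusted p = 0.161) in transgenic liver, where it did not pass, and -1.06 (SE 0.15, adjusted p = 0.00215, passing under every alternative tried) in wild-type liver. Oasl1, which in mice limits translation of Irf7, had 2.5 and 2.71 FPKM in transgenic livers with LPS, against 7.42 and 5.41 FPKM untreated, and 3.41 and 3.74 FPKM in wild-type livers with LPS, against 4.64 and 4.49 FPKM untreated. Mx2, a dynamin-like antiviral GTPase, had 1.46 and 1.8 FPKM in transgenic livers with LPS, against 3.86 and 4.3 FPKM untreated, and 2.2 and 2.27 FPKM in wild-type livers with LPS, against 3.94 and 3.07 FPKM untreated. Both genes were lower in every LPS library, and their transgenic falls of -1.03 (SE 0.16, adjusted p = 0.00353) and -0.95 (SE 0.15, adjusted p = 0.00372) passed under every alternative tried. Wild-type changes were -0.28 for Oasl1 (adjusted p = 0.243) and -0.47 for Mx2 (adjusted p = 0.0604).

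The IFIT genes, which encode RNA-binding inhibitors of viral translation, went in opposite directions. Ifit1 had 3.08 and 2.08 FPKM in transgenic livers with LPS, against 6.31 and 5.5 FPKM untreated, and 2.44 and 2.91 FPKM in wild-type livers with LPS, against 3.86 and 4.36 FPKM untreated. Ifit2 had 3.4 and 2.1 FPKM in transgenic livers with LPS, against 1.44 and 1.01 FPKM untreated, and 1.53 and 1.83 FPKM in wild-type livers with LPS, against 0.621 and 0.844 FPKM untreated. In transgenic liver Ifit1 fell (-0.96, SE 0.17, limma adjusted p = 0.00681) and Ifit2 rose (0.74, SE 0.20, adjusted p = 0.0315), and in wild-type liver neither passed (-0.48, adjusted p = 0.0911, and 0.63, adjusted p = 0.0604). The groups did not overlap in either gene. The Oas1a row, for an enzyme whose oligoadenylates activate RNase L, had 2.37 and 2.04 FPKM in transgenic livers with LPS, against 0.396 and 0.755 FPKM untreated, and 1.16 and 2.14 FPKM in wild-type livers with LPS, against 1.02 and 0.425 FPKM untreated. It rose in transgenic liver (1.03, SE 0.24, adjusted p = 0.0189) and missed the threshold in wild-type liver (0.62, SE 0.24, adjusted p = 0.112). Rtp4 had 3.0 and 4.55 FPKM in transgenic livers with LPS, against 6.44 and 6.69 FPKM untreated, and 4.75 and 5.52 FPKM in wild-type livers with LPS, against 5.75 and 6.0 FPKM untreated, and fell in transgenic liver (-0.68, SE 0.18, adjusted p = 0.0271). Without both untreated libraries numbered 1 the transgenic calls of Ifit1, Ifit2, Oas1a and Rtp4 were lost.

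A further 4 effectors passed only in the change averaged over the genotypes. Zbp1, a sensor of left-handed nucleic acid, had 2.27 and 2.76 FPKM in transgenic livers with LPS, against 6.06 and 3.51 FPKM untreated, and 3.29 and 2.67 FPKM in wild-type livers with LPS, against 4.66 and 3.57 FPKM untreated. Ifi35 had 8.98 and 10.5 FPKM in transgenic livers with LPS, against 16.9 and 13.4 FPKM untreated, and 11.2 and 11.3 FPKM in wild-type livers with LPS, against 18.8 and 13.7 FPKM untreated. Both fell, with changes of -0.52 (SE 0.16, limma adjusted p = 0.0404) and -0.53 (SE 0.13, adjusted p = 0.0182), with all LPS libraries below all untreated ones. Parp14, an ADP-ribosyltransferase, had 4.59 and 5.2 FPKM in transgenic livers with LPS, against 4.16 and 3.49 FPKM untreated, and 4.11 and 5.06 FPKM in wild-type livers with LPS, against 3.08 and 3.25 FPKM untreated. Oasl2, a ubiquitin-like relative of the oligoadenylate synthetases, had 2.62 and 2.02 FPKM in transgenic livers with LPS, against 1.69 and 1.27 FPKM untreated, and 1.81 and 2.3 FPKM in wild-type livers with LPS, against 1.49 and 1.11 FPKM untreated. These rose by 0.35 (SE 0.11, adjusted p = 0.0333) and 0.41 (SE 0.12, adjusted p = 0.0321). Each of these 4 calls was lost under at least 1 library left out. The other tested effectors, Ifit3, Isg15, Rsad2, Oas2, Mx1 and Xaf1, passed in no contrast, and their averaged changes lay between 0.01 for the Ifit3 row and 0.44 for Oas2.

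None of the cytosolic RNA sensors rose. Ddx58 (RIG-I) had 4.41 and 5.55 FPKM in transgenic livers with LPS, against 6.86 and 6.58 FPKM untreated, and 5.08 and 5.93 FPKM in wild-type livers with LPS, against 5.45 and 7.43 FPKM untreated. Ifih1 (MDA5) had 4.33 and 5.17 FPKM in transgenic livers with LPS, against 5.64 and 6.88 FPKM untreated, and 5.11 and 5.0 FPKM in wild-type livers with LPS, against 4.93 and 7.85 FPKM untreated. Neither passed in any contrast, and their wild-type groups overlapped. Dhx58 (LGP2), which modulates the other two, had 3.52 and 3.06 FPKM in transgenic livers with LPS, against 6.48 and 4.91 FPKM untreated, and 4.28 and 3.86 FPKM in wild-type livers with LPS, against 5.11 and 4.42 FPKM untreated. It fell in transgenic liver (-0.63, SE 0.16, limma adjusted p = 0.0251) and did not pass in wild-type liver (-0.18, SE 0.16, adjusted p = 0.451). The transgenic call was lost without untreated transgenic library 1.

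Of the factors that carry type I signals, Irf7, which amplifies interferon production, had 15.9 and 17.7 FPKM in transgenic livers with LPS, against 15.5 and 10.8 FPKM untreated, and 17.9 and 21.4 FPKM in wild-type livers with LPS, against 16.6 and 8.74 FPKM untreated. The LPS libraries were higher within each genotype, but the changes of 0.35 (SE 0.29, limma adjusted p = 0.41) in transgenic and 0.65 (SE 0.29, adjusted p = 0.152) in wild-type liver did not pass. The Irf9 row, which it shares with the neighbouring ubiquitin ligase gene Rnf31, had 11.6 and 10.2 FPKM in transgenic livers with LPS, against 21.9 and 19.8 FPKM untreated, and 11.7 and 11 FPKM in wild-type livers with LPS, against 24.3 and 15.4 FPKM untreated. It fell in both genotypes, with changes of -0.88 (SE 0.21, adjusted p = 0.0204) in transgenic and -0.73 (SE 0.21, adjusted p = 0.0447) in wild-type liver, where 11 of 17 alternatives ended the call. The Stat2 and Apof row had 140.0 and 229.0 FPKM in transgenic livers with LPS, against 386.0 and 371.0 FPKM untreated, and 204.0 and 216.0 FPKM in wild-type livers with LPS, against 358.0 and 351.0 FPKM untreated. It fell in transgenic liver (-1.07, SE 0.24, adjusted p = 0.0145) and is counted above as a type I-linked row by name alone. Leaving aside the rows shared with genes outside the set, the median of the type I-linked rows was -0.32 in transgenic and -0.17 in wild-type liver.

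The genes upstream of the members were taken from lists by role. Interferon transcripts were scarce: of 13 interferon genes in the table, 11 were listed at 0 in all 8 libraries, Ifng did not exceed 0.0758 FPKM and Ifnk did not exceed 0.219 FPKM. Of 5 receptor genes tested, 3 rose and 0 fell in each genotype, where 16.0% of all rows rose in transgenic and 16.2% in wild-type liver. Ifngr1, the ligand-binding chain of the interferon gamma receptor, had 26.4 and 27.3 FPKM in transgenic livers with LPS, against 11.7 and 9.74 FPKM untreated, and 29.7 and 26.8 FPKM in wild-type livers with LPS, against 11 and 9.91 FPKM untreated. It rose by 1.25 (limma adjusted p = 0.00105) in transgenic and 1.35 (adjusted p = 0.0006) in wild-type liver, Ifngr2 by 0.46 (adjusted p = 0.0474) and 1.07 (adjusted p = 0.00143), and Il10rb, shared by the interferon lambda and interleukin 10 receptors, by 1.61 (adjusted p = 0.000554) and 1.87 (adjusted p = 0.00025). Of the JAK-STAT genes, Jak1 (transgenic 0.43, adjusted p = 0.0635; wild type 0.17, adjusted p = 0.43) and Stat3 (transgenic 0.04, adjusted p = 0.894; wild type -0.15, adjusted p = 0.611) did not pass.

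Of 12 genes tested for sensing LPS and nucleic acids, Mavs, the adaptor of the cytosolic RNA sensors, fell in the change averaged over the genotypes (-0.39, limma adjusted p = 0.046). In each genotype 6 of the 12 rose and 0 fell, beside 16.0% of all rows that rose in transgenic and 16.2% in wild-type liver. The largest was Cd14, with 46.7 and 20.8 FPKM in transgenic livers with LPS, against 3.93 and 2.63 FPKM untreated, and 21.7 and 26 FPKM in wild-type livers with LPS, against 5.36 and 2.35 FPKM untreated. Tlr7 rose by 1.74 in transgenic and 1.41 in wild-type liver, Tlr9 by 1.13 and 1.33, and Tmem173 (STING) by 1.06 and 1.21. Of 6 pathway inhibitors tested, Ptpn6, a phosphatase of blood cells, rose in both genotypes (transgenic 0.72, wild type 1.36), and Trim24 rose in transgenic liver (0.72). Of the other IRF genes, Irf5 (transgenic 0.87, wild type 1.30) and Irf4 (transgenic 1.14, wild type 0.86) rose in both genotypes, Irf2 fell in wild-type liver (-0.53) and Irf3 fell in transgenic liver (-0.61). All changes in this paragraph passed in limma.

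Genes near the members in function also moved in both directions. Over all rows 16.0% rose and 10.5% fell in transgenic liver, and 16.2% rose and 5.41% fell in wild-type liver. Of 33 other interferon-stimulated rows tested, 11 rose and 4 fell in transgenic liver and 12 rose and 2 fell in wild-type liver. The row of Ifi30, a lysosomal thiol reductase, shared with Pik3r2, rose most, by 2.13 in transgenic and 2.35 in wild-type liver, followed by the Ifi27l2a row (1.47 and 1.81), and Isg20 (1.27 and 1.50). Cd274 (PD-L1; 1.17 and 1.30) and Samhd1 (1.02 and 1.39) also rose, while Ifi27 fell (-1.38 and -0.95). Of 5 other interferon-inducible GTPase rows, Gbp8 (transgenic 1.49, wild type 1.95) and Gbp5 (transgenic 0.73, wild type 0.82) rose in both genotypes, and the IRG-related Gm4951 (-1.64) and F830016B08Rik (-0.64) fell in transgenic liver. Gm4951 had 10.2 and 24.2 FPKM in transgenic livers with LPS, against 47.1 and 55.9 FPKM untreated, a gap between the LPS libraries like that of Iigp1. Of 11 other class I presentation genes, none rose, and the loading chaperones Calr (transgenic -1.19, wild type -1.14) and Pdia3 (transgenic -0.84) fell.

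The transgene alone changed no member past the threshold, and no member passed for the transgene under LPS or for the interaction of transgene and LPS. In limma 0 of 37 member rows passed for transgenic against wild type in untreated liver (0.0611% of all rows did), 0 with LPS (0.0%) and 0 in the interaction (0.00872%). At an unadjusted p under 0.05 there were 7, 3 and 4 member rows, and the smallest adjusted p-values were 0.477 for the Gbp6 row (0.58, SE 0.14) in untreated liver, 0.316 for Usp18 (0.53, SE 0.15) with LPS and 0.41 for Psmb9 (-0.94, SE 0.25) in the interaction. By count, 33 of 37 member rows were higher in transgenic than in wild-type untreated liver, where 50% of all rows were, and 26 of 37 were lower in transgenic than in wild-type liver with LPS, where 55.4% of all rows were. Untreated transgenic and untreated wild-type libraries did not overlap in 15 rows with transgenic higher (15.4% of all rows) and 1 with transgenic lower (14.2%), and with LPS in 3 (22.0%) and 15 (30.0%). The LPS change was more negative in transgenic than in wild-type liver in 30 of 37 member rows (81.1%), against 56.2% of all rows. These interaction counts rest on the same 8 libraries as the changes above, and since members may move together within a library they are given without a test.

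The members that went furthest in this direction were Irf1 (-1.16, SE 0.50), Psmb9 (-0.94, SE 0.25) and Oasl1 (-0.74, SE 0.23), and Usp18 was opposite to them (0.74, SE 0.22); none passed the adjusted threshold (limma adjusted p = 0.485, 0.41, 0.418 and 0.418). A change that passed in one genotype and not in the other is therefore not shown to differ between them. For Psmb9 the untreated transgenic libraries, at 12.9 and 12.1 FPKM, were above the untreated wild-type ones, at 7.35 and 8.89 FPKM. With LPS the order was reversed, at 10.2 and 13.0 FPKM in transgenic against 13.7 and 17 FPKM in wild-type livers. The Gbp6 row was likewise higher in untreated transgenic livers, at 5.98 and 6.57 FPKM, against 3.92 and 3.81 FPKM in untreated wild-type livers, while the LPS-treated groups overlapped.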

How the data were processed

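Liver RNA was sequenced in 8 libraries, 4 groups of 2. The deposited FPKM values came from the authors; per the submitters' processing notes TopHat2 2.1.0, Bowtie2 2.2.6, Cufflinks and Cuffdiff 2.2.1 were used with build mm10. The annotation, any scaling between libraries and the use of strand in counting were not stated there. Per the labels' protocols the RNA came from frozen, pulverized liver and the libraries from a stranded mRNA kit. No fragment counts were used, so depth is unknown and no counting interval is given.

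Rows were found by gene name, keeping the copy with the highest sum where a name repeats, and names with identical values in all libraries were joined as 1 row. In limma 3.58.1 (R 4.3.3) 1 mean per group was fitted to log2(FPKM + 1) of all 8 libraries, which leaves 4 residual degrees of freedom; variances were moderated towards their trend with the mean (prior degrees of freedom 3.59 in the median); 6 contrasts were tested, 2-sided, with Benjamini-Hochberg adjustment over all 11463 rows. The script was tested on simulated data. Where 1 library was left out, the lone library of its group was assumed to vary like the others.

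The members, their classes and the lists were chosen with earlier results of these data known, so no test is made over a list. Every library's value is given for members that passed in any contrast and for the 2 highest of each class. The pathway lists name up to 4 genes each, the largest changes that passed; where more are named, or no values but a range are given, these were chosen after the values were seen. The promoter rule took at most 2 genes a class with a motif and the largest averaged change, 12 in all; 8 are printed, those that passed in either genotype, the Stat2 row aside. Some genes of the pathway lists are not reported here.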

Additional observations from a re-analysis of the deposited data

How the results depend on the processing

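Under every alternative run, 4 of 17 transgenic LPS calls of members held (Oasl1, Mx2, Irgm2 and Irf8), 3 of 9 wild-type ones (Usp18, Gbp2 and Irf8) and 14 of 25 averaged ones; the cause of the losses was not tested. Leaving out 1 library at a time gave 2 to 5 member rows higher and 3 to 14 lower in transgenic liver, and 2 to 9 higher and 1 to 4 lower in wild-type liver. In transgenic liver a filter of 5 FPKM, which tests fewer rows, left 3 that rose, and leaving out both untreated libraries numbered 1, an alternative chosen after seeing the data, left 4 that fell. In wild-type liver the rows that fell, 2 as reported, were 1 with no filter, 1 with equal FPKM sums, 4 under quantile scaling and 1 when both untreated libraries numbered 1 were left out. No member passed a genotype contrast or the interaction in any alternative run.

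Scaling to equal FPKM sums raised the values before the filter, so 12701 rows were tested, and the added 1 FPKM weighed less. More than the scaling therefore differs from the reported fit. This setting put the median over all rows at 0.18 in transgenic and 0.21 in wild-type liver, against -0.04 and -0.05 as reported. The share of calls that were higher was 79.9% and 95.2%, against 60.4% and 75.0%. Quantile scaling gave shares of 53.8% and 59.5%, no filter 70.0% and 81.0%, and the 5 FPKM filter 48.4% and 64.2%. With equal sums the type I-linked median was -0.08 in transgenic liver, where leaving out 1 library gave -0.40 to -0.19 on the reported scale, and reversed to 0.12 in wild-type liver, below the shifted median of all rows. On the reported scale it also reversed, to 0.01, without untreated wild-type replicate 2 (range over libraries left out -0.17 to 0.01). GBP medians with equal sums were 1.05 in transgenic and 1.07 in wild-type liver, and those of the immunoproteasome and TAP rows 0.35 and 1.09. Leaving out 1 library gave transgenic medians of -1.33 to -0.72 for IRG, 0.59 to 0.93 for GBP and -0.06 to 0.39 for immunoproteasome and TAP rows, and leaving out both untreated libraries numbered 1 gave 0.93 for GBP and 0.39 for immunoproteasome and TAP rows.

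Libraries were not paired by replicate number in the reported fit. Deviations of same-numbered libraries correlated at 0.043 to 0.459, all above 0 and highest between the untreated groups, with only 2 pairs in each contrast. Whether same-numbered libraries share a batch was not tested. With the number as a replicate block, 5 member rows rose and 13 fell in transgenic liver and 7 rose and 2 fell in wild-type liver, and class medians were as reported. Over all rows 3314 passed in transgenic and 2769 in wild-type liver, against 3034 and 2481 as reported. The interaction then had 2 rows over the whole table, no member among them. Depth is unknown, so whether rows under 1 FPKM differ could not be assessed.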
